A study of Equus caballus with 10 samples.

Results

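The genes described here encode enzymes that remove reactive oxygen species, and the transcription factor that controls many of them. A list of 10 symbols was fixed by name (GPX4, GPX5, PRDX4, PRDX6, SOD1, SOD2, SOD3, CAT, TXNRD3 and NFE2L2), and a gene was taken where a probe set carried that symbol alone in the platform annotation. Of the 10 genes, 8 were measured in this way, each by 1 probe set, among 30559 probe sets on the array. GPX4 and SOD3 were not analysed here. No measured value decided which of the listed genes were taken, but the list was chosen with earlier results of these data known.

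Spermatozoa carry membranes rich in polyunsaturated fatty acids, which peroxides attack, and they hold little cytoplasm and make almost no new RNA. Superoxide dismutases turn superoxide into hydrogen peroxide, and catalase, the glutathione peroxidases and the peroxiredoxins then reduce the peroxide. Thioredoxin reductases return electrons to this system, and NRF2, the product of NFE2L2, activates many antioxidant genes in cells that still transcribe. Stallion sperm draw much of their energy from mitochondrial respiration, which itself releases superoxide.

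Sperm RNA of 10 warmblood stallions (Equus caballus) of breeding age at an insemination centre was hybridised to Affymetrix arrays, 1 array per stallion, after 4 ejaculates per animal had been sampled. Spring stallions of low fertility were 7, 8 and 10, spring stallions of high fertility 3, 4 and 9, autumn stallions of low fertility 5 and 6, and autumn stallions of high fertility 1 and 2. The labels place sampling in the breeding season for every animal, autumn ones included, and name no treatment, and the sources used here do not give how fertility was scored. The title of stallion 9's array carries the letters of the autumn titles although its season field says spring, so it was kept in spring, and values with it in autumn are given beside many of the results.

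The log2 signals were used as deposited, their lowest value is a floor at 4, and no pair of arrays was identical. Array medians were 5.07 to 5.10 for stallions 2, 9 and 10, here called the low-signal arrays, against 5.24 to 5.49 for the remaining 7. All 12 listed sperm and late spermatid markers were measured, and their mean signal was 9.17 to 9.58 on the low-signal arrays and 10.37 to 11.42 on the others. By group this mean was 9.17 to 11.42 in spring stallions of low fertility, 9.58 to 11.25 in spring stallions of high fertility, 10.59 to 10.86 in autumn stallions of low fertility and 9.40 to 10.76 in autumn stallions of high fertility. Of the markers of other cells, 13 of 14 for leukocytes averaged 5.19 to 5.64 per array, 16 of 20 for epididymis and accessory glands 5.30 to 6.41, 5 of 8 for epithelium 5.40 to 5.93 and 5 of 9 for red cells 5.12 to 5.74. None of these markers lay on the floor on all 10 arrays. Within the leukocyte list, S100A9 was 8.24 and 8.19 in stallions 5 and 6, the autumn animals of low fertility, and 4.78 to 6.63 in the others. No other measured leukocyte marker set both of these stallions apart, and S100A8 was 5.07 and 4.00 in them. The part of S100A9 in the values below was not tested.

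No antioxidant gene passed the threshold for season, for fertility class or for their interaction. PRDX6 and CAT each ranged over more than 3 log2 units among the 10 animals, while SOD1, NFE2L2, GPX5 and TXNRD3 had ranges of 0.79 to 1.10. PRDX6 was low in the 3 stallions with low-signal arrays, and CAT was lowest in stallions 9 and 8.

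**Figure D1:**
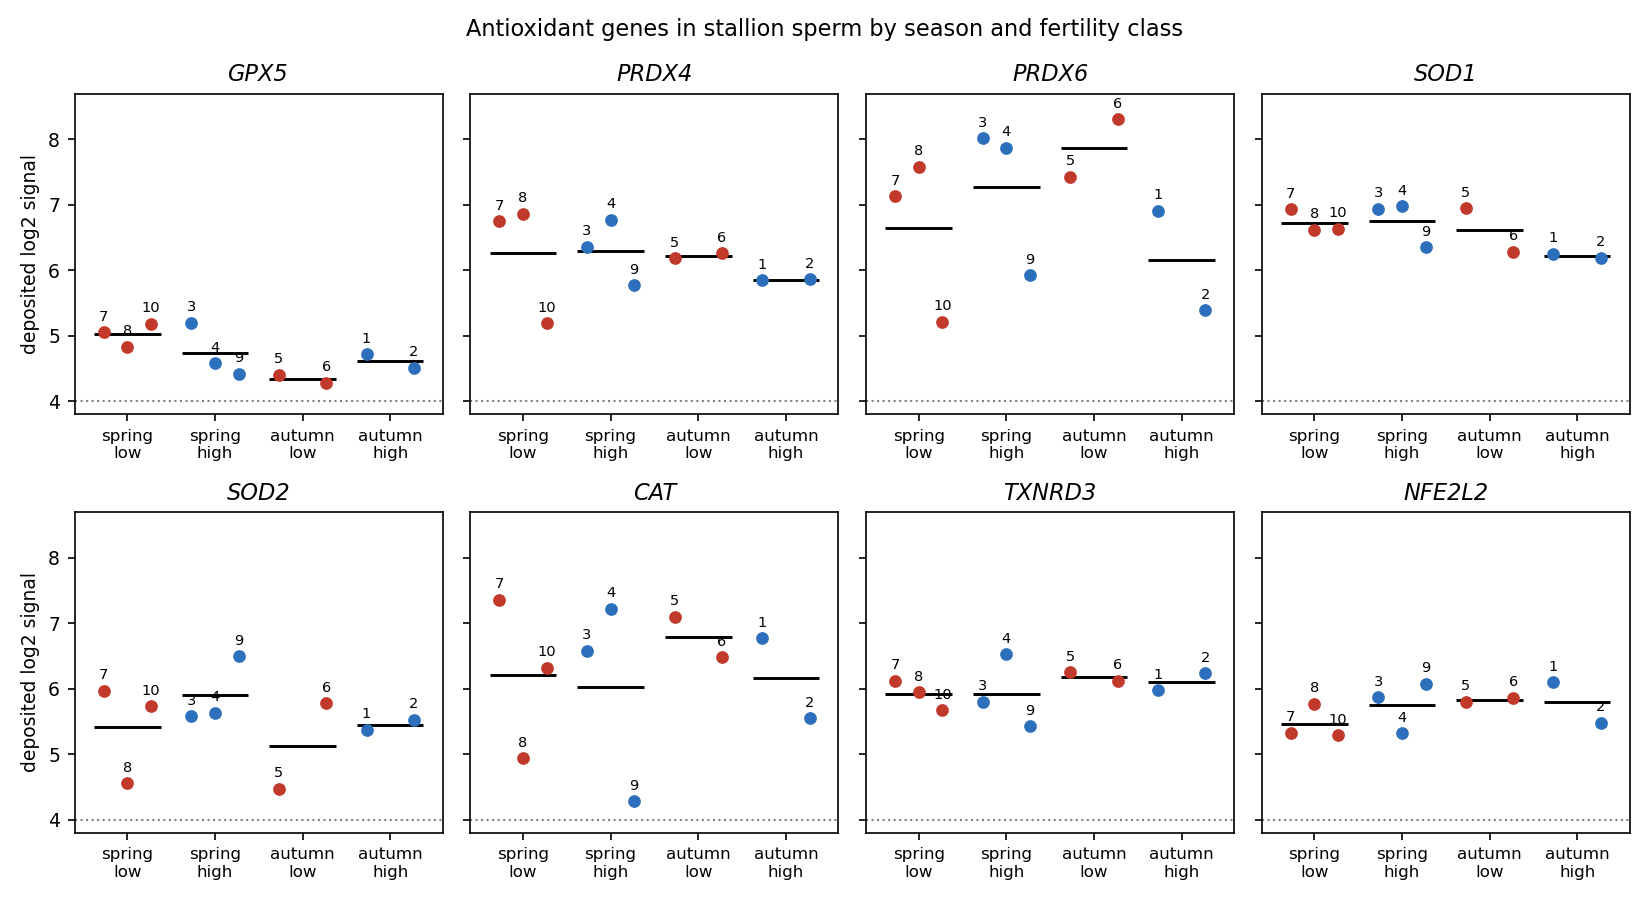
Deposited log2 signal (vertical axis) of the 8 antioxidant genes in the 4 season by fertility groups, with 1 numbered point per stallion, red for low and blue for high fertility. Black bars are group means and the dotted line is the floor at 4. PRDX6 spans 5.21 to 8.31 and CAT 4.28 to 7.36, whereas SOD1 spans 6.19 to 6.98.

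Among the peroxiredoxins, PRDX6 encodes a cytosolic enzyme that reduces phospholipid hydroperoxides, and mice without it have sperm of poor quality. Its signal was 7.13, 7.58 and 5.21 in spring stallions of low fertility, and 8.02, 7.87 and 5.92 in spring stallions of high fertility. It was 7.43 and 8.31 in autumn stallions of low fertility, and 6.91 and 5.39 in autumn stallions of high fertility. The spring groups overlapped, and the low-fertility animals lay above the high-fertility animals in autumn. Group means ran from 7.87 ± 0.62 in autumn with low fertility (SD, n = 2) through 7.27 ± 1.17 in spring with high fertility (n = 3) and 6.64 ± 1.26 in spring with low fertility (n = 3) to 6.15 ± 1.07 in autumn with high fertility (n = 2). Each step between neighbours in this order was smaller than the larger of the 2 SDs.

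The low-signal arrays gave PRDX6 signals of 5.39, 5.92 and 5.21 in stallions 2, 9 and 10, against 6.91 to 8.31 in the other 7 stallions. After each array's median was subtracted the ranges were 0.13 to 0.85 and 1.47 to 3.07, so the sets still did not overlap. These arrays were set apart by their medians and belong to 3 different groups, so the gap of -2.10 is a description with no test. Of all probe sets, 11.3% lay lower on the 3 arrays with no overlap, and PRDX6 was 1 of 8 antioxidant genes to do so. The sperm marker mean was lower on the same 3 arrays, and its part in the PRDX6 values was not tested. In bulk sperm RNA, fewer cells of a type and less RNA per cell cannot be told apart.

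PRDX4 encodes the peroxiredoxin of the endoplasmic reticulum, whose loss in mice leads to testicular atrophy. It stood at 6.75, 6.86 and 5.19 in spring stallions of low fertility, and at 6.36, 6.77 and 5.77 in spring stallions of high fertility. In autumn it was 6.18 and 6.26 in stallions of low fertility, and 5.85 and 5.86 in stallions of high fertility. The spring groups overlapped and the autumn pairs did not. The lowest PRDX4 signals, 5.19 and 5.77, were those of stallions 10 and 9. The low-signal arrays together reached 5.86, just above the lowest of the others at 5.85. Group means were 6.27 and 6.30 in the spring low and high classes and 6.22 and 5.86 in the autumn low and high classes, closer than the SD of 0.93 within spring with low fertility.

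GPX5 encodes a glutathione peroxidase without selenocysteine that the epididymis secretes and that coats sperm in several mammals. Its signal was near the floor, under 5 on 7 of the 10 arrays and below the array's median on 9. It was 5.05, 4.83 and 5.18 in spring stallions of low fertility, and 5.20, 4.58 and 4.42 in spring stallions of high fertility. It was 4.4 and 4.28 in autumn stallions of low fertility, and 4.72 and 4.51 in autumn stallions of high fertility. The spring low-fertility group thus lay wholly above the autumn low-fertility group, and its lowest value also exceeded both autumn high-fertility values. Of the epididymis and accessory gland markers, CRISP1 ranged from 4.00 to 4.98, BSP1 from 4.30 to 8.40 and CRISP3 from 4.25 to 7.52 over the 10 arrays. The mean of the 16 measured markers was highest in stallion 3, at 6.41, which also had the highest GPX5 signal. In that stallion BSP1, LCN2 and CRISP3 were at their highest, at 8.40, 8.22 and 7.52, but CRISP1 at its lowest, 4.00. The marker mean was 5.53 in stallion 10, whose GPX5 signal of 5.18 was next. Their part in the GPX5 values was not tested.

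SOD1, the cytosolic copper and zinc dismutase, had the smallest range of the 8 genes, 0.79. Its signal was 6.93, 6.62 and 6.63 in spring stallions of low fertility, and 6.94, 6.98 and 6.35 in spring stallions of high fertility. In autumn it was 6.95 and 6.28 in stallions of low fertility, and 6.25 and 6.19 in stallions of high fertility. All 3 spring high-fertility values exceeded both autumn high-fertility values, while the low-fertility seasons overlapped. Stallion 5 stood apart from the other autumn animals, which lay between 6.19 and 6.28. Group means were 6.76 ± 0.35 in spring with high fertility, 6.73 ± 0.18 in spring with low fertility, 6.62 ± 0.47 in autumn with low fertility and 6.22 ± 0.04 in autumn with high fertility (SD, n = 3, 3, 2 and 2).

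SOD2, the manganese dismutase of mitochondria, was 5.97, 4.56 and 5.73 in spring stallions of low fertility, and 5.58, 5.63 and 6.50 in spring stallions of high fertility. It was 4.47 and 5.78 in autumn stallions of low fertility, and 5.37 and 5.53 in autumn stallions of high fertility. Each low-fertility group held 1 animal well below its group, stallion 8 at 4.56 and stallion 5 at 4.47, and all 5 high-fertility animals lay at 5.37 or above. The low and high classes still overlapped, since stallions 6, 7 and 10 had 5.73 to 5.97. SOD2 was highest in stallion 9 and was not lower on the low-signal arrays, with 5.53 to 6.50 there against 4.47 to 5.97 on the others.

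CAT encodes catalase, the peroxisomal enzyme that splits hydrogen peroxide. Its signal was 7.36, 4.94 and 6.32 in spring stallions of low fertility, and 6.58, 7.22 and 4.28 in spring stallions of high fertility. It was 7.10 and 6.48 in autumn stallions of low fertility, and 6.77 and 5.55 in autumn stallions of high fertility. Each spring group held 1 animal below 5, stallion 8 at 4.94 and stallion 9 at 4.28, and every pair of groups overlapped. Stallion 8 had the highest sperm marker mean of all, 11.42, and stallion 9 one of 9.58, and the part of these markers in the CAT values was not tested. The low-signal arrays had 4.28 to 6.32 and the others 4.94 to 7.36. Only 8.0% of the CAT variance lay between the 4 groups, against a median of 26.5% over all probe sets.

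TXNRD3 encodes a thioredoxin and glutathione reductase that is most abundant in testis. It was 6.12, 5.95 and 5.67 in spring stallions of low fertility, and 5.80, 6.53 and 5.43 in spring stallions of high fertility. In autumn it was 6.25 and 6.12 in stallions of low fertility, and 5.98 and 6.24 in stallions of high fertility. The autumn values all lay within the range of the spring high-fertility values.

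NFE2L2, the gene of NRF2, had 5.33, 5.77 and 5.29 in spring stallions of low fertility, and 5.87, 5.32 and 6.08 in spring stallions of high fertility. It had 5.80 and 5.86 in autumn stallions of low fertility, and 6.10 and 5.48 in autumn stallions of high fertility. The autumn low-fertility values lay above all 3 spring low-fertility values but only just, since stallion 8 had 5.77. The high-fertility seasons overlapped.

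**Figure D2:**
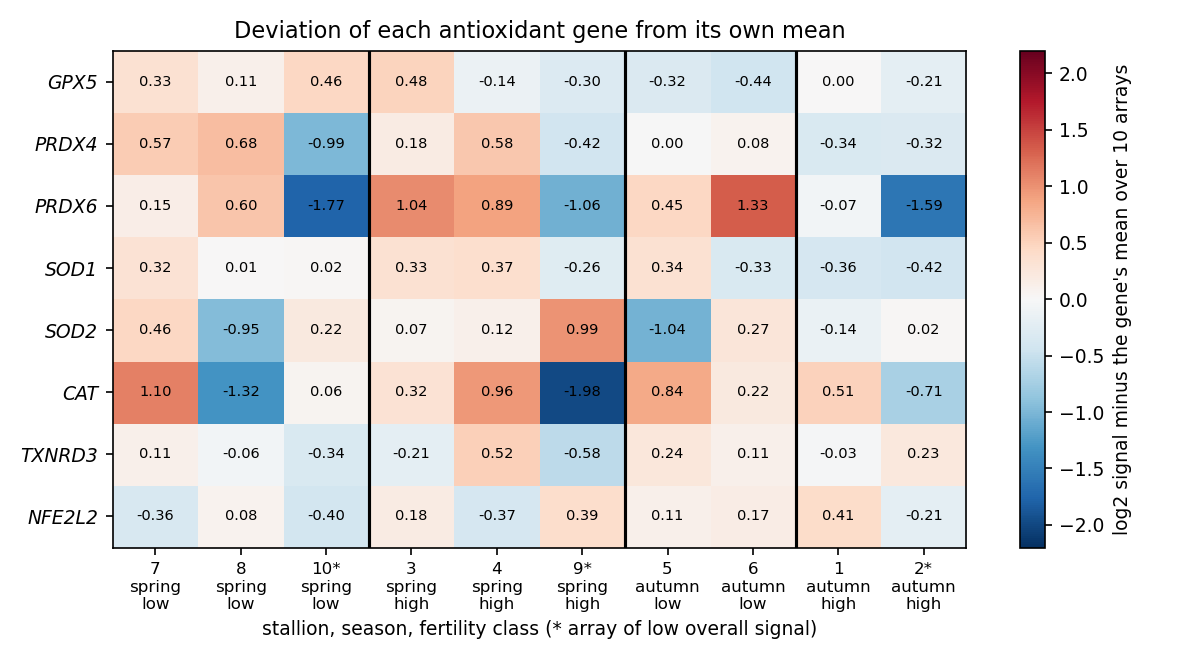
Log2 signal of each antioxidant gene minus its own mean over the 10 arrays, printed and coloured (red above, blue below), with stallions ordered by season and fertility class and asterisks on the low-signal arrays. The cells of PRDX6 are deepest blue in stallions 10, 2 and 9, and those of CAT in stallions 9 and 8.

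The spread over the 10 arrays was 1.11 for PRDX6 and 1.02 for CAT (SD, n = 10), larger than that of 98.8% and 98.2% of all probe sets. SOD2 at 0.61 exceeded 85.5% of them and PRDX4 at 0.53 exceeded 79.0%. The other 4 genes had SDs of 0.31 to 0.34, near the median of 0.35 over all probe sets. The share of variance between the 4 groups ran from 57.4% for GPX5 and 43.3% for SOD1 to 11.05% for PRDX4 and 8.0% for CAT, and the middle 50% of all probe sets lay between 14.5% and 42.0%.

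The first comparison asked whether transcript levels differed by season. In limma's fit over all 30559 probe sets, 0 of the 8 genes passed at an adjusted p under 0.05, each with adjusted p = 1, where 0.00327% of all probe sets passed. At an unadjusted p under 0.05 the count was also 0 of 8, where 4.18% of all probe sets passed. The means of 4 genes were higher and those of 4 lower in spring, where 41.6% of all probe sets were higher. The median difference was 0.095, against -0.0475 over all probe sets. After median centring of the arrays the split was 5 higher and 3 lower, where 53.6% of all probe sets were higher. A p above the threshold does not show that levels were alike, so the intervals are given with the differences.

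GPX5 had the smallest p for season, at 4.88 in spring against 4.48 in autumn, a difference of 0.40 (SE 0.18, 95% interval -0.018 to 0.82, unadjusted p = 0.0584, adjusted p = 1). SOD1 differed by 0.32 (SE 0.20, interval -0.12 to 0.77) and SOD2 by 0.37 (SE 0.36, interval -0.45 to 1.20). With stallion 9 in autumn the SOD2 difference was 0.05, that of GPX5 0.51 (limma, unadjusted p = 0.0142, adjusted p = 1) and that of SOD1 0.40 (unadjusted p = 0.0386). After median centring GPX5 differed by 0.47 (limma, unadjusted p = 0.0420) and SOD1 by 0.39 (unadjusted p = 0.0492), each with adjusted p = 0.997. The intervals of CAT, -1.82 to 1.10, and PRDX6, -1.41 to 1.30, admit changes of more than 1 log2 unit either way. CAT's difference of -0.36 became 0.39 with stallion 9 in autumn, and that of PRDX6, -0.055, became 0.32. PRDX4 differed by 0.25 (SE 0.34, interval -0.53 to 1.03). Without the low-signal arrays it differed by 0.65, where stallion 1 alone is left in autumn with high fertility. TXNRD3 differed by -0.23 (interval -0.74 to 0.27) and NFE2L2 by -0.20 (interval -0.67 to 0.27). No gene separated the 6 spring from the 4 autumn arrays, as 0.762% of all probe sets did. Without the low-signal arrays PRDX4 alone separated the seasons, where 5.72% of all probe sets did. Without stallion 5 SOD1 alone separated them, where 1.64% did.

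**Figure D3:**
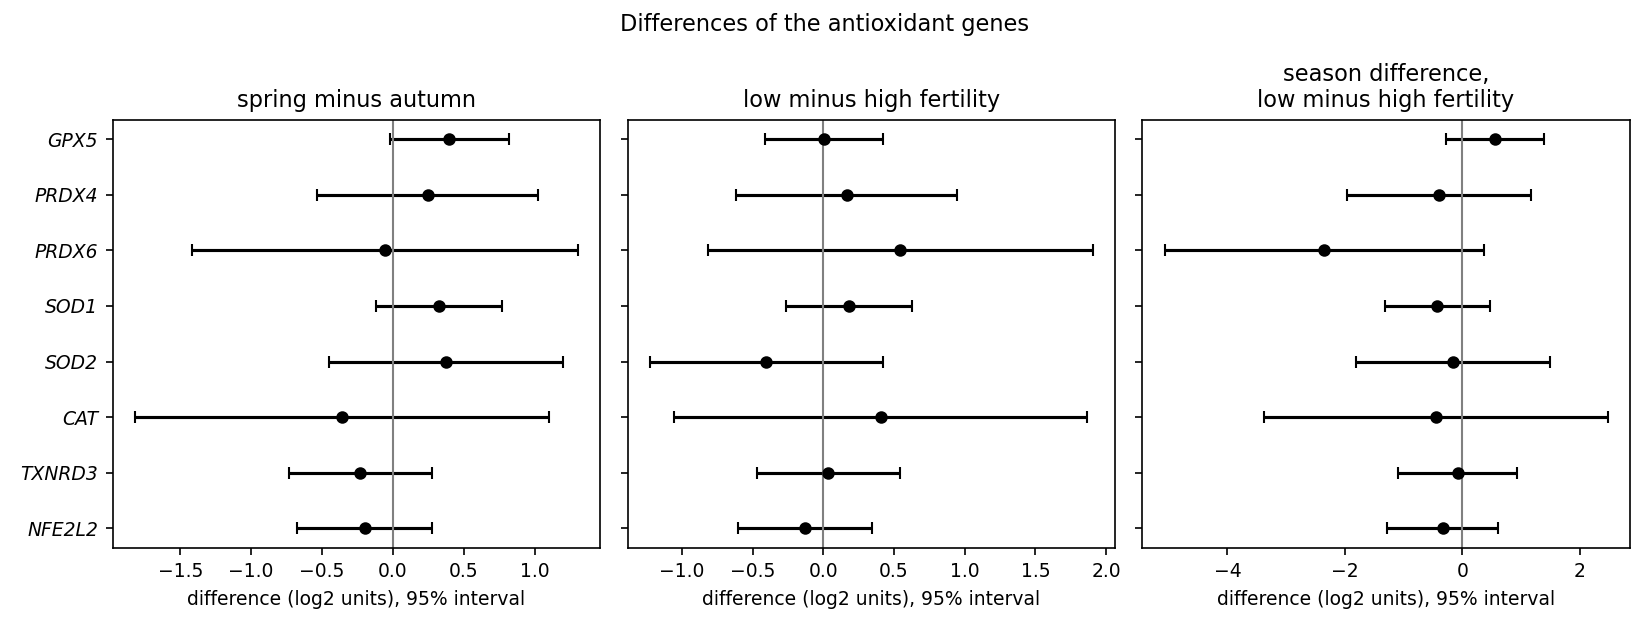
Differences of the 8 antioxidant genes in log2 units (horizontal axis, a separate scale in each panel) with 95% intervals from limma, for spring minus autumn, low minus high fertility, and the season difference in low minus that in high fertility. Every interval spans 0, and those of PRDX6 and CAT are the widest.

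The second comparison set low against high fertility, where each class value is the unweighted mean of its spring and autumn group means. Again 0 of 8 genes passed, each with adjusted p = 1 in limma, where 0.00327% of all probe sets passed, and 0 of 8 reached an unadjusted p under 0.05, where 2.59% of all did. The means of 6 genes were higher and those of 2 lower in low fertility, with a median difference of 0.10 against 0.054 over all probe sets, of which 60.6% were higher. After median centring or quantile normalization the split was 4 higher and 4 lower.

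PRDX6 had the largest difference by fertility, 7.26 in low against 6.71 in high fertility, or 0.545 (SE 0.60, interval -0.81 to 1.90). Averaged over the stallions of each class instead, PRDX6 was 7.13 in low and 6.82 in high fertility, and the additive model gave 0.31. Without the low-signal arrays the PRDX6 difference was 0.185, and with stallion 9 in autumn 0.25. CAT differed by 0.405 (SE 0.65, interval -1.06 to 1.87), but by -0.365 without the low-signal arrays. SOD2 had the lower mean in low fertility, 5.27 against 5.68 in high fertility, a difference of -0.40 (SE 0.36, interval -1.23 to 0.42, unadjusted p = 0.295). Leaving out 1 stallion at a time took it from -0.73 without stallion 6 to -0.077 without stallion 5, and it was -0.19 without stallion 8 and -0.255 without stallion 9.

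GPX5 and TXNRD3 had differences of 0.0058 (interval -0.41 to 0.42) and 0.034 (interval -0.47 to 0.54), which turned negative after median centring or quantile normalization of the arrays. PRDX4 differed by 0.17 (interval -0.61 to 0.95), SOD1 by 0.18 (interval -0.26 to 0.63) and NFE2L2 by -0.13 (interval -0.60 to 0.35). Leaving out 1 stallion at a time gave 0.0175 (without stallion 8) to 0.435 (without stallion 10) for PRDX4 and 0.015 (without stallion 5) to 0.35 (without stallion 6) for SOD1. The values were 0.0475 for PRDX4 and 0.059 for SOD1 with stallion 9 in autumn. No gene separated the 5 low-fertility from the 5 high-fertility arrays, as 0.353% of all probe sets did.

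Within seasons, 0 of 8 genes passed in spring, where 0% of all probe sets did, or in autumn, where 0.00327% did (limma, adjusted p = 1 for each). At an unadjusted p under 0.05 the counts were also 0 of 8 in both, against 2.24% of all probe sets in spring and 4.24% in autumn. PRDX6 averaged 7.87 in low and 6.15 in high fertility in autumn, a difference of 1.72 (SE 0.93, interval -0.39 to 3.83, unadjusted p = 0.0977), and 6.64 in low and 7.27 in high fertility in spring, a difference of -0.63 (SE 0.76). In autumn the 2 low-fertility animals lay above the 2 high-fertility animals for PRDX4, PRDX6 and SOD1 and below them for GPX5, or 4 of 8 genes, where 28.7% of all probe sets separated. After median centring PRDX6 and GPX5 separated, 2 of 8 genes where 30.9% of all probe sets did. With stallion 9 in autumn PRDX4, PRDX6 and GPX5 separated there, 3 of 8 genes where 18.3% of all probe sets did. In spring no gene separated 3 from 3, as 6.71% of all probe sets did. With stallion 9 in autumn or left out, PRDX6 and SOD1 lay lower in low than in high fertility in spring without overlap, 2 of 8 genes where 16% of all probe sets separated.

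The third comparison asked whether the season difference itself differed between the fertility classes. In limma 0 of 8 genes passed, each with adjusted p = 1, where 0.00327% of all probe sets passed, and 0 of 8 reached an unadjusted p under 0.05, where 3.79% of all did. The interaction was negative for 7 of 8 genes, where 56.3% of all probe sets were negative. The median was -0.37, against -0.07 over all probe sets.

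PRDX6 had the largest value. Its spring minus autumn difference was -1.23 in low fertility (6.64 against 7.87) and 1.12 in high fertility (7.27 against 6.15). The interaction of -2.35 had an SE of 1.20 and an interval of -5.07 to 0.37 (unadjusted p = 0.0823). It was -1.55 without the low-signal arrays, where stallion 1 alone is left in autumn with high fertility. With stallion 9 in autumn it was -3.10 (limma, unadjusted p = 0.0106, adjusted p = 0.747). Median centring gave -2.27 (limma, unadjusted p = 0.0485, adjusted p = 0.9996). Quantile normalization gave -2.23 (limma, unadjusted p = 0.0465, adjusted p = 0.995). Stallions 10, 9 and 2, with the lowest sperm marker means, belong to 3 of the 4 groups and none to autumn with low fertility, the group of highest PRDX6 mean, and their part in the interaction beyond these values was not tested.

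Of the others, CAT was at -0.45 (interval -3.37 to 2.47), SOD1 at -0.425 (interval -1.32 to 0.47), PRDX4 at -0.40 (interval -1.96 to 1.16) and NFE2L2 at -0.33 (interval -1.28 to 0.61). SOD2 was at -0.16 and TXNRD3 at -0.082. Placing stallion 9 in autumn gave interactions of -1.95 for CAT, -0.585 for SOD1, -0.69 for PRDX4, -0.075 for NFE2L2, 0.49 for SOD2 and -0.55 for TXNRD3, each with an adjusted p of at least 0.907 in limma.

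GPX5 was the exception in sign, at 0.56 (SE 0.37, interval -0.27 to 1.4). Its spring minus autumn difference was 0.68 in low fertility (5.02 against 4.34, SE 0.26, unadjusted p = 0.0283, adjusted p = 1) and 0.12 in high fertility (4.73 against 4.62). That was the only 1 of 8 genes with an unadjusted p under 0.05 for season in low fertility, where 3.97% of all probe sets had one, and 0.00654% passed after adjustment. In high fertility 0 of 8 reached it, where 4.15% of all did and 0% passed after adjustment. The seasons did not overlap for GPX5 and NFE2L2 in low fertility, 2 of 8 genes where 16.3% of all probe sets separated, or for SOD1 and SOD2 in high fertility, 2 of 8 where 16.1% did. After median centring GPX5 alone separated in low fertility, where 16.4% of all probe sets did, and SOD1 alone in high fertility, where 18.4% did. With stallion 9 in autumn PRDX4, PRDX6 and SOD1 separated in high fertility, 3 of 8 genes where 19.1% of all probe sets did.

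The 8 genes did not follow each other closely across stallions. Over the 28 pairs, Pearson's r ran from -0.43 to 0.76 over the 10 arrays, and these values are descriptions of arrays that share the low-signal difference. The highest was between PRDX4 and PRDX6, at 0.76, and it was 0.20 over the 7 arrays without stallions 2, 9 and 10. The most negative over those 7 was PRDX4 with NFE2L2, at -0.79, against -0.10 over all 10.

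The genes most like each antioxidant gene were ranked by r over the 10 arrays among 2895 other genes with an SD of at least 0.5 and a mean at or above the median of all probe sets, 5.27. For PRDX6 they were GTF3A, a transcription factor gene of ribosomal RNA synthesis, the H2A variant gene H2AL3 and the adaptor complex gene AP3M2, each with r = 0.98, and 0.91, 0.89 and 0.94 over the 7 arrays. H2AL3 had 9.90, 10.64 and 7.57 in spring stallions of low fertility and 10.69, 10.82 and 8.27 in spring stallions of high fertility. It had 10.33 and 10.76 in autumn stallions of low fertility and 9.27 and 8.05 in autumn stallions of high fertility, with its lowest values in stallions 10, 2 and 9 as for PRDX6.

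For CAT they were RPL14, a ribosomal protein gene (r = 0.91, and 0.90 over 7 arrays), KLK1E2, a kallikrein gene of horse seminal plasma (0.87 and 0.74), and CASKIN2 (0.87 and 0.79). KLK1E2 is also on the list of accessory gland markers, and like CAT it was lowest in stallion 9, at 4.81, but its value of 5.92 in stallion 8 was above that of 5.47 in stallion 2.

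**Figure D4:**
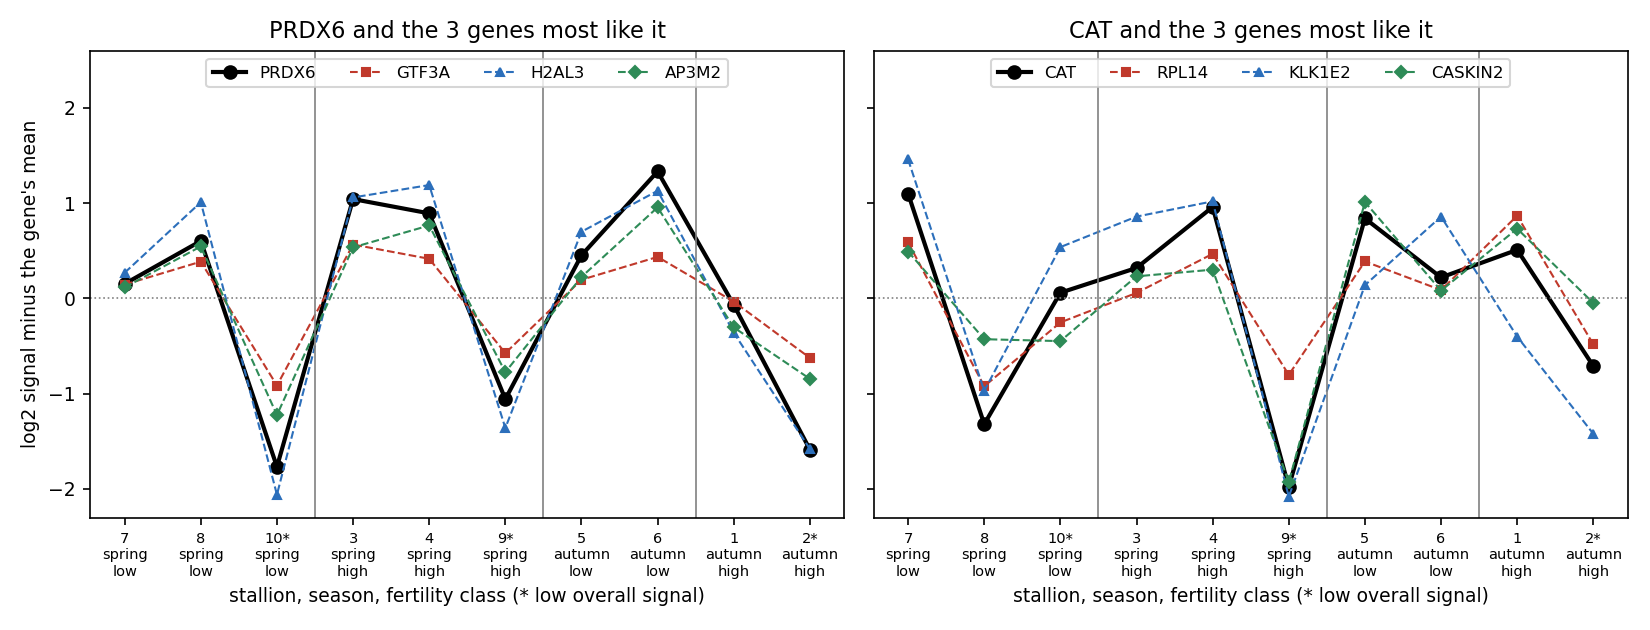
Log2 signal minus each gene's own mean (vertical axis) over the 10 stallions for PRDX6 (left) and CAT (right) in black, with the 3 genes of highest correlation in colour; asterisks mark the low-signal arrays. PRDX6 and its 3 companions, chosen for their correlation over these same arrays, dip together in stallions 10, 9 and 2. CAT is lowest in stallions 9 and 8.

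For SOD1 the closest were LOC100051657 (r = 0.86), EEFSEC, the elongation factor for selenocysteine (0.78), and POMP, a proteasome assembly factor (0.78), with 0.87, 0.92 and 0.92 over the 7 arrays. SOD2 was most like the histone gene H2AC9 (0.85), the kinase gene NUAK2 (0.79) and ZNF81 (0.79). PRDX4 was most like LOC100147508 (0.95), GAB2 (0.92) and RSPRY1 (0.91), TXNRD3 like QRICH1 (0.88), GPBP1L1 (0.88) and CTBP1 (0.85), NFE2L2 like DLX6 (0.88), MRPL54 (0.82) and MAPK4 (0.80), and GPX5 like LOC100064229 (0.78), IDNK (0.72) and STAC3 (0.70). The same array differences enter all of these correlations. Each gene named was picked as highest among 2895 on the same arrays, so a high r follows in part from the choice.

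Around these genes, 9 lists of related genes were examined, of which 93 of 104 named genes were measured: the other glutathione peroxidases and peroxiredoxins, thioredoxins, glutathione synthesis and transfer, metal handling, NRF2 regulators and targets, repair of oxidised molecules, selenoprotein synthesis, and enzymes that produce reactive oxygen. In limma 0 of 93 passed in any of the 3 comparisons (adjusted p = 1 for each). At an unadjusted p under 0.05, 1 was higher and 4 were lower in spring, 3 were higher and 0 lower in low fertility, and 1 interaction was positive and 2 were negative. These 5, 3 and 3 of 93 genes stand beside 4.18%, 2.59% and 3.79% of all probe sets, so the counts are near the background.

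GLRX, the cytosolic glutaredoxin that reduces protein disulfides with glutathione, had the smallest p by fertility. It was 5.39, 5.51 and 5.15 in spring stallions of low fertility and 4.92, 4.83 and 4.63 in spring stallions of high fertility, and 5.93 and 5.56 in autumn stallions of low fertility and 5 and 5.38 in autumn stallions of high fertility. Low-fertility values lay above high-fertility values within each season, though not across seasons. Of all probe sets, 6.71% separated the classes in spring and 28.7% in autumn. This gene was picked by its p from the same values, so its separation is no further support. The difference was 0.56 (SE 0.16, unadjusted p = 0.00701, adjusted p = 1). It was also among the genes with the smallest p for season, at -0.40 (SE 0.16, unadjusted p = 0.0353, adjusted p = 1).

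NOX4, an NADPH oxidase gene that makes hydrogen peroxide, was 5.10, 4.97 and 4.87 in spring stallions of low fertility and 5.03, 4.81 and 4.65 in spring stallions of high fertility. It was 5.47 and 5.57 in autumn stallions of low fertility and 4.86 and 4.38 in autumn stallions of high fertility. The autumn pairs were apart, as in 28.7% of all probe sets, and the spring groups overlapped. Its fertility difference was 0.525 (SE 0.16, unadjusted p = 0.0081, adjusted p = 1) and its interaction -0.75 (SE 0.31, unadjusted p = 0.0388, adjusted p = 1). PSTK, a kinase of selenocysteine synthesis, differed by 0.32 (SE 0.13) and NOX1, another NADPH oxidase gene, by -0.27 (SE 0.14) in low against high fertility.

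Among genes named for season, SEPSECS, the enzyme that completes selenocysteine on its transfer RNA, differed by -0.39 (SE 0.17), GSTZ1 by -0.63 (SE 0.27) and PRDX3, the mitochondrial peroxiredoxin, by -0.385 (SE 0.17), all lower in mean in spring with adjusted p = 1 in limma. For the interaction, NOX1 was at 0.74 (SE 0.28), the glutathione transferase gene GSTM3 at -1.06 (SE 0.44) and TXN, the cytosolic thioredoxin, at -1.19 (SE 0.54), again with adjusted p = 1. GSTM3 ranged from 7.19 in stallion 2 to 8.46 in stallion 4. PRDX3 and SEPSECS were near the floor, at 4.00 to 4.99 and 4.25 to 5.12, with PRDX3 on it in stallion 9. TXN ranged from 4.05 in stallion 2 to 5.58 in stallion 3.

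By list, the medians for fertility ran from -0.00625 for the other peroxiredoxins to 0.16 for selenoprotein synthesis, where 10 of 11 genes had the higher mean in low fertility. Over all 93 genes, 63 were higher and 30 lower, with a median of 0.098 against 0.054 over all probe sets, of which 60.6% were higher. After median centring the counts were 53 higher and 40 lower, where 49.9% of all probe sets were higher. Without the low-signal arrays the split was 46 higher and 47 lower with a median of -0.015, and without stallion 2 alone 45 higher and 48 lower. For season 39 were higher and 54 lower in spring, where 41.6% of all probe sets were higher. Median centring gave 53 higher and 40 lower for season, where 53.6% of all probe sets were higher. For the interaction 68 of 93 were negative, with a median of -0.22 against -0.07 over all probe sets, of which 56.3% were negative. Without the low-signal arrays the counts were 44 negative and 48 positive, with a median of 0.01 against 0.07 over all probe sets. Without stallion 2 alone they were 43 negative and 50 positive. Median centring and quantile normalization each gave 60 negative and 33 positive, where 48.9% and 49.7% of all probe sets were negative. With stallion 9 in autumn the counts were 75 negative and 18 positive, where 64.6% of all probe sets were negative. The glutathione synthesis and transfer list had 15 of 16 negative interactions and a median of -0.33, and the list of NRF2 regulators and targets 15 of 17 and -0.38. The list of enzymes that produce reactive oxygen had 6 of 10 positive and a median of 0.074. These counts by list are from the fit as reported and were not repeated without the low-signal arrays.

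**Figure D5:**
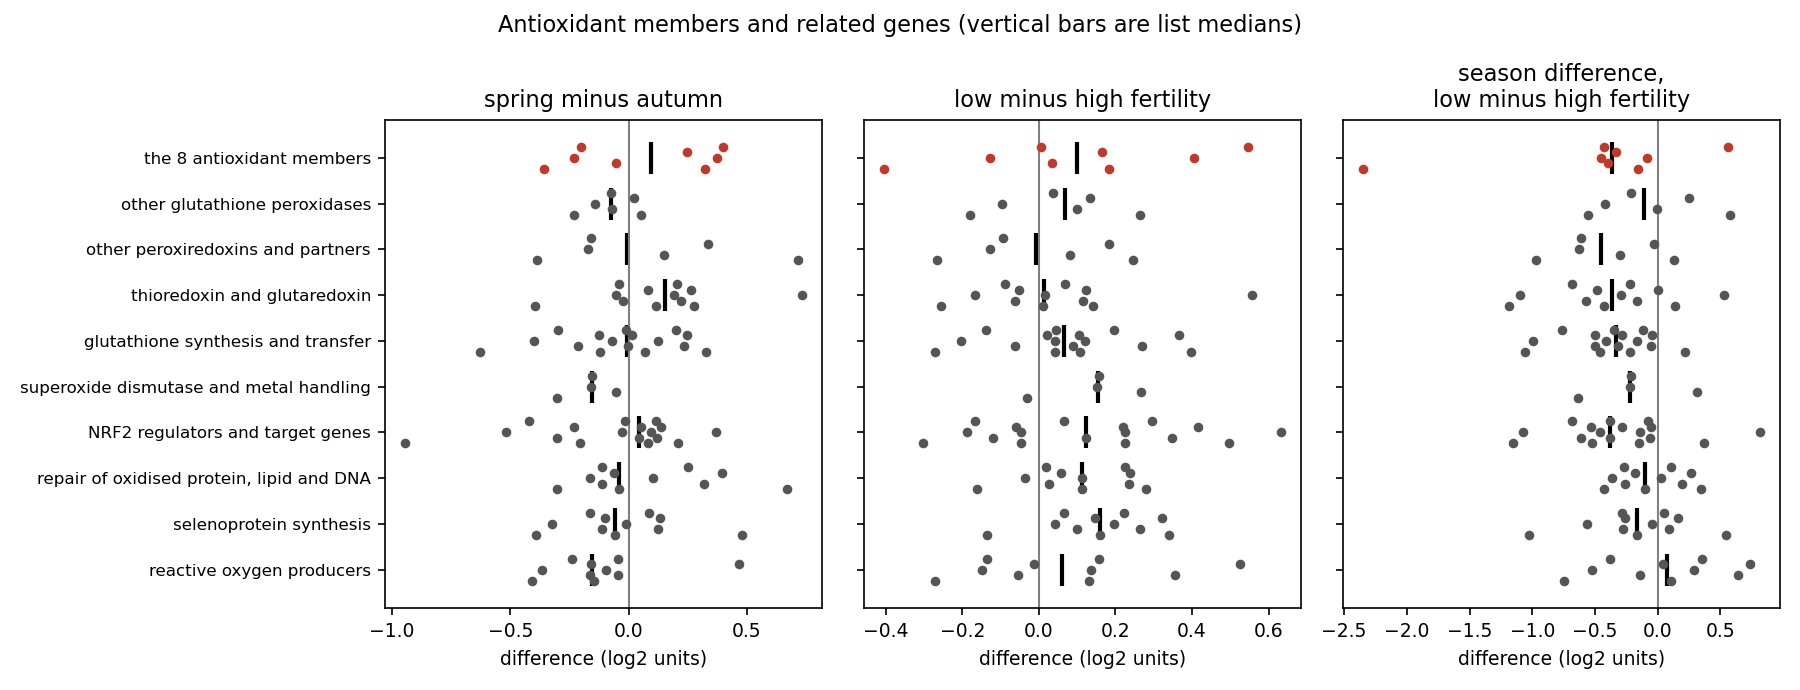
Differences in log2 units (horizontal axis, a separate scale in each panel) of the 8 antioxidant genes (red) and of 9 lists of related genes (grey), 1 point per gene, for season, fertility and interaction; vertical bars are list medians. The interaction panel has most points left of 0, with PRDX6 at -2.35 farthest out.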

How the data were processed

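Sperm RNA of 10 stallions was measured on 10 arrays, and the labels' season and fertility fields gave the 4 groups. The values are log2 signals as deposited by the authors, and Affymetrix Expression Console 1.1 and GCOS 1.1.1 were used, per the submitters' processing notes. For summarisation, background correction and scaling, the method is not given in the sources. Between 842 and 2920 of 30559 probe sets per array lie on the floor of 4. The platform annotation gave 16789 probe sets 1 symbol, 343 several and 13427 none.

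One model with 4 group means was fitted to all probe sets in limma 3.58.1 (R 4.3.3), with eBayes, two-sided tests and Benjamini-Hochberg adjustment over all probe sets. The fit was tested on simulated data with independent noise and no array-wide differences in signal. The simulated shifts were larger than any fertility difference reported here, so the test does not bear on smaller changes. All 8 measured genes are named in each comparison, with the 3 most correlated genes each, and up to 4 related genes of smallest p per comparison. Genes, lists and alternatives were chosen with earlier results of these data known. No label tells if each animal's ejaculates were pooled, and signals of different probe sets do not rank their genes. The number of arrays limits the precision.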

Additional observations from a re-analysis of the deposited data

Results flagged for a closer look

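Gaps within the seasons and fertility classes were examined for each of the 8 genes, 32 sets in all, of which chance flags about 1 in 20. SOD1 in stallion 5, at 6.95, lay far from the other 3 autumn arrays, which had 6.19 to 6.28. SOD2 in stallion 9, at 6.50, lay far from the other 4 high-fertility arrays, which had 5.37 to 5.63, and this is the stallion whose title and season field differ.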

How the results depend on the processing

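No antioxidant gene and no related gene passed the threshold under any of the 17 alternatives or as reported, and the lowest adjusted p of the 8 genes over 397 values was 0.747, for the PRDX6 interaction with stallion 9 in autumn. That interaction was negative throughout, from -3.11 to -1.55. Median centring gave 0.0125 for PRDX6 by season, and -0.048 for GPX5 and -0.02 for TXNRD3 by fertility. Quantile normalization gave -0.033 for GPX5 and -0.0297 for TXNRD3 by fertility and 0.035 for the TXNRD3 interaction. With stallion 9 in autumn, season differences were 0.32 for PRDX6, 0.39 for CAT and 0.005 for TXNRD3, that of GPX5 by fertility was -0.04 and the SOD2 interaction 0.49. Without stallions 2, 9 and 10, PRDX6 was 0.26 and TXNRD3 0.0175 by season, GPX5 -0.165 and CAT -0.365 by fertility, and the NFE2L2 interaction 0.225. All of these differ in sign from the values reported, and the cause was not tested. Leaving out 1 stallion at a time also changed signs. By fertility the ranges were -0.032 to 0.72 for CAT, -0.0725 to 0.1225 for GPX5, -0.28 to 0.028 for NFE2L2 and -0.088 to 0.19 for TXNRD3. By season they were -0.66 to 0.078 for CAT and -0.435 to 0.325 for PRDX6. For the interaction they were -1.32 to 0.18 for CAT, -0.695 to 0.14 for PRDX4, -0.81 to 0.50 for SOD2 and -0.33 to 0.22 for TXNRD3. A group of 2 then holds 1 stallion, assumed to vary like the other groups. Without stallions 2, 9 and 10 this also holds for autumn with high fertility. Averaging a gene's probe sets was not run, since each gene has 1, GPX5 was not tested under the filter on low means, and the additive model gives no interaction. No paired analysis was possible because the stallion numbers are unique to each animal. Groups of 2 or 3 arrays leave wide intervals, and GPX5 lies near the floor.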
